A study of Mus musculus with 2 samples.

Results

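Habenula-like neurons marked by Ptprq were examined in single-nucleus RNA sequencing data from mouse thalamus after sham operation or cortical ablation injury (CAI). The nuclei were picked by UMI counts (unique molecular identifiers, 1 for each RNA molecule captured). A nucleus was included where it held at least 2 UMIs of Ptprq, at least 1 UMI of D130079A08Rik, more Ptprq than Pde11a, and no UMI of Chat, Slc5a7, Gad1 or Gad2. After removal of nuclei outside 200 to 7500 genes or above 2% mitochondrial UMIs, 270 of 38150 nuclei met these conditions, 141 of 16373 in the sham library and 129 of 21777 in the injury library. They are called Ptprq nuclei here.

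Each library held nuclei from the thalamus on the operated side, taken at day 21 after surgery from 4 pooled female C57BL/6J mice aged 3 months, with no transgene or allele named. In CAI the sensory and motor cortex was surgically removed, and sham mice were operated without this removal. Nuclei were sorted by propidium iodide, which stains DNA and sets no cell type apart. Because each group was 1 pool in 1 library, no difference between sham and injury had a replicate check, and all intervals are at 95% and cover counting error only.

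The habenula is a small paired structure on top of the thalamus. Its medial part sends axons to the interpeduncular nucleus and is known for neurons that use the peptides encoded by Tac1 and Tac2 or acetylcholine. Its lateral part receives input from the basal ganglia and limbic forebrain and acts on dopamine and serotonin neurons of the midbrain. Ptprq encodes a receptor-type protein tyrosine phosphatase best known from the hair bundles of the inner ear, Kcnh8 a voltage-gated potassium channel, and Popdc3 a member of the Popeye family, membrane proteins that bind cyclic AMP. D130079A08Rik is an annotated long non-coding RNA.

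The libraries held 137850696 UMIs in 16390 barcodes (sham) and 180106314 UMIs in 21828 barcodes (injury). The Ptprq nuclei contributed 1251622 and 1162745 UMIs, with a median of 7551 UMIs per nucleus (1189 to 35407) in the sham and 7526 (839 to 34998) in the injury library. Of 101 barcodes present in both libraries, 0 belonged to a Ptprq nucleus. Scrublet scores each nucleus for likeness to a simulated mixture of 2 nuclei, and a nucleus counted as a doublet where its score was among the top ones, with the cutoff set from 0.8% for every 1000 nuclei kept and ties included (2179 sham and 3867 injury nuclei). Among Ptprq nuclei 22 sham (15.6%) and 27 injury (20.9%) were called, beside a cutoff set at 13.1% and 17.4% of all nuclei kept.

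Other sets of nuclei served for comparison. Pde11a nuclei had D130079A08Rik and more Pde11a than Ptprq, with at least 2 UMIs of Pde11a and no Chat, Slc5a7, Gad1 or Gad2 (370 sham and 392 injury nuclei). Chat nuclei had at least 2 UMIs of the cholinergic genes Chat and Slc5a7 and no Gad1 or Gad2 (350 and 575). Other glutamatergic nuclei had at least 2 UMIs of the vesicular glutamate transporters Slc17a6 and Slc17a7 and fell in none of these sets (5049 and 5300). Oligodendrocyte-like nuclei (564 and 1386) had at least 5 UMIs of Mobp, Mog and Mag and no Rbfox3, and served as a type that should lack these neuronal genes.

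Ptprq (chromosome 10, 107517049 to 107720051, GRCm38) was at 577 UMIs per 1000000 (CPM, interval 536 to 621) in the sham Ptprq nuclei and 572 CPM (529 to 617) in the injury Ptprq nuclei. This level follows from the selection and is given as a description. Single nuclei held 2 to 23 Ptprq UMIs with a median of 4 in the sham library, and 2 to 30 with a median of 3 in the injury library. Ptprq was not confined to them. Pde11a nuclei had it at 133 and 124 CPM, while other glutamatergic nuclei were at 3.08 and 2.66 CPM. The Ptprq nuclei held 42.1% (sham) and 37.5% (injury) of all Ptprq UMIs.

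D130079A08Rik (chromosome 14, 104288431 to 104459336) was at 914 and 962 CPM in the sham and injury Ptprq nuclei. Its level was 1486 and 1496 CPM in Pde11a nuclei, also selected on it, 411 CPM in sham Chat nuclei, and 29.1 CPM in sham glutamatergic nuclei. Kcnh8 (chromosome 17, 52602709 to 52979194), which the selection did not use, was at 623 CPM (580 to 669) in the sham and 594 CPM (551 to 640) in the injury Ptprq nuclei. It was lower but present in Pde11a nuclei (481 and 384 CPM) and in sham Chat nuclei (435 CPM), against 57.4 and 53.6 CPM in other glutamatergic nuclei. A UMI of Kcnh8 was found in 64.5% and 62.0% of Ptprq nuclei and in 2.13% and 2.67% of the shallower oligodendrocyte-like nuclei (median 1937 and 2098 UMIs). Over all nuclei outside the Ptprq set, 22.4% (sham) and 19.9% (injury) held a UMI of Kcnh8. The Ptprq nuclei held 6.29% and 4.66% of all Kcnh8 UMIs.

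Popdc3 behaved differently. It was at 78.3 CPM (63.6 to 95.4) in sham and 83.4 CPM (67.7 to 102) in injury Ptprq nuclei, where 39.0% and 36.4% of nuclei held a UMI. Pde11a nuclei were at 1.59 and 0.677 CPM, Chat nuclei at 1.93 and 1.85 CPM, and other glutamatergic nuclei at 2.18 and 2.30 CPM. The share of nuclei with a UMI was 0.355% and 0.361% in oligodendrocyte-like nuclei, and 1.97% and 1.71% in all nuclei outside the Ptprq set. The Ptprq nuclei held 18.4% (sham) and 14.6% (injury) of all Popdc3 UMIs, so most of its UMIs lay in other nuclei.

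**Figure D1:**
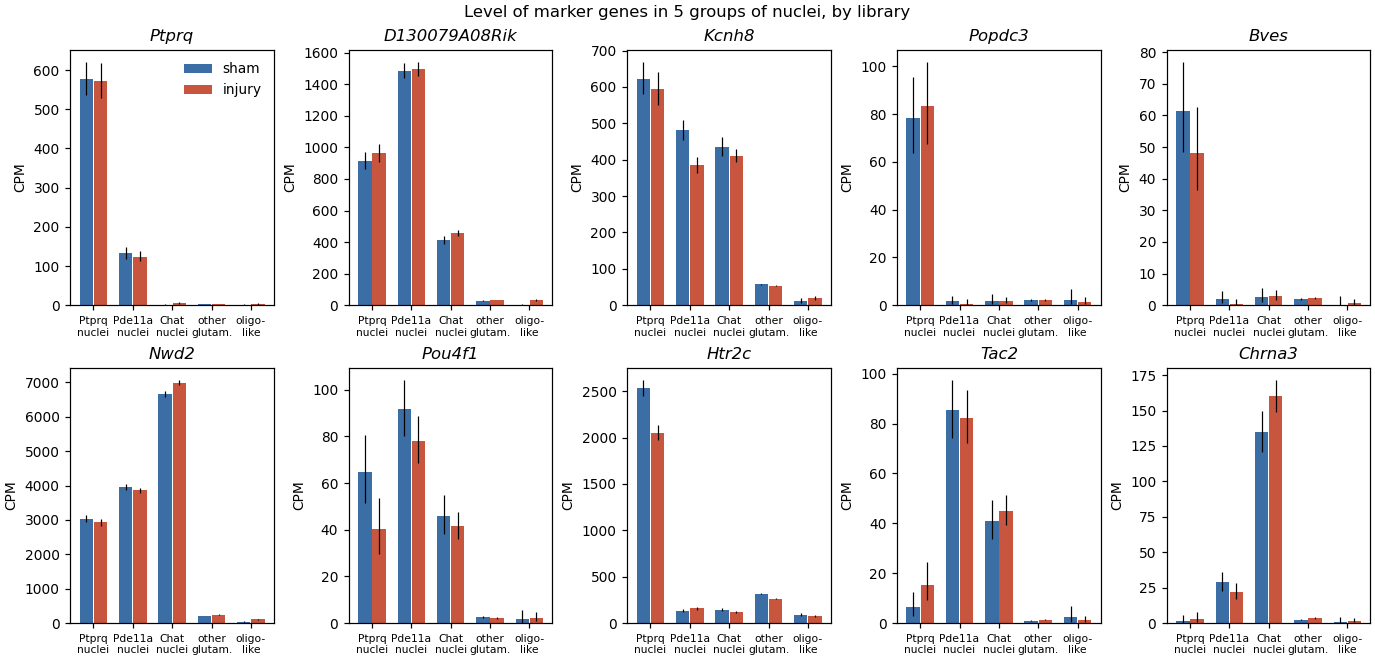
Levels of 10 genes in CPM (vertical axes, each from 0) in 5 groups of nuclei (horizontal axes), with blue bars for the sham and red bars for the injury library. Error bars are exact Poisson 95% intervals of the summed counts. Popdc3 and Bves stand near 0 in the other 4 groups, whereas Nwd2 and Pou4f1 are present in 3 groups and Tac2 and Chrna3 are high in Pde11a or Chat nuclei.

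The gene next to Popdc3 showed the same pattern. Bves, the founding member of the Popeye family, lies 17319 bases downstream of Popdc3 on the same strand of chromosome 10 (Popdc3 at 45178098 to 45318452, Bves at 45335772 to 45372479). Bves was at 61.5 CPM (48.6 to 76.9) in sham and 48.2 CPM (36.4 to 62.5) in injury Ptprq nuclei, against 1.98 and 0.339 CPM in Pde11a nuclei and 1.95 and 2.20 CPM in other glutamatergic nuclei. Prep, a prolyl endopeptidase on the other side of Popdc3, was at 30.4 CPM in sham Ptprq nuclei and 24.7 CPM in sham glutamatergic nuclei, and Lin28b, beyond Bves, was at 157 and 156 CPM. Against Pde11a nuclei Lin28b was higher, at 157 CPM (135 to 180) and 170 CPM (147 to 196) in sham and injury Ptprq nuclei and 76.9 CPM (66.5 to 88.6) and 83.3 CPM (73.2 to 94.4) in Pde11a nuclei. Both Popeye genes were seen in 29 sham and 22 injury nuclei, Popdc3 alone in 26 and 25, Bves alone in 16 and 19, and neither in 70 and 63. The remaining family member, Popdc2, had 0 UMIs in the Ptprq nuclei of both libraries, where 3 UMIs would correspond to 2.40 and 2.58 CPM.

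The habenula label was checked against markers that the selection did not use. Of those given here, Nwd2 and Pou4f1 are on the medial habenula list, whereas Irx2 and Kctd8 are not. Nwd2 and Irx2 also appear below among the genes highest over other glutamatergic nuclei in these same data. Nwd2, which is concentrated in the habenula, was at 3037 CPM (2941 to 3135) in sham and 2934 CPM (2837 to 3035) in injury Ptprq nuclei, against 204 and 249 CPM in other glutamatergic nuclei. Pou4f1, the POU-domain transcription factor of habenula neurons, was at 64.7 and 40.4 CPM against 2.64 and 2.30 CPM. Irx2, an Iroquois homeobox factor, was at 43.9 and 45.6 CPM against 2.87 and 2.91 CPM. Kctd8, an auxiliary subunit of GABA-B receptors, was at 1937 and 1670 CPM against 194 and 177 CPM. In these markers the Ptprq nuclei resembled the Pde11a nuclei, with Pou4f1 at 91.6 and 78.2 CPM there.

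The markers of transmitter type set them apart. Tac2, which encodes neurokinin B, was at 6.39 CPM (2.76 to 12.6) in sham and 15.5 CPM (9.17 to 24.5) in injury Ptprq nuclei, against 85.3 and 82.3 CPM in Pde11a nuclei. Tac1, which encodes substance P, was at 11.2 and 3.44 CPM against 60.3 and 43.7 CPM. The nicotinic receptor subunit Chrna3 was at 1.60 and 2.58 CPM in Ptprq nuclei, 29.0 and 22.0 CPM in Pde11a nuclei and 135 CPM in sham Chat nuclei. Of the 14 medial habenula markers on the list, all 14 had at least 1 UMI in the Ptprq nuclei, but Chrna5 and Rspo2 had 1 UMI each over both libraries. Together the 14 summed to 3322 (sham) and 3202 CPM (injury), against 432 and 502 CPM in other glutamatergic nuclei. Nwd2 made up most of the sum in Ptprq nuclei. Without Nwd2 and Pou4f1 the sum was not higher in Ptprq than in other glutamatergic nuclei.

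The serotonin receptor Htr2c, a lateral habenula marker on the list, went the other way. It was at 2530 CPM (2443 to 2620) in sham and 2051 CPM (1970 to 2135) in injury Ptprq nuclei. Pde11a nuclei were at 136 and 159 CPM, sham Chat nuclei at 143 CPM, and other glutamatergic nuclei at 316 and 265 CPM. Gpr151, an orphan receptor of lateral habenula axons, was at 17.6 and 8.60 CPM against 3.17 and 3.05 CPM in Pde11a nuclei. Gap43, a growth cone protein, was at 153 and 179 CPM against 65.8 and 58.2 CPM, and the protocadherin Pcdh10 at 105 and 131 CPM against 33.3 and 49.4 CPM. The remaining gene of the list, the M3 muscarinic receptor Chrm3, was lower than in Pde11a nuclei, at 269 and 332 CPM against 513 and 425 CPM. All 5 genes summed to 3074 and 2701 CPM in Ptprq nuclei, against 1185 and 1143 CPM in other glutamatergic nuclei. Without Htr2c the sum was lower in Ptprq than in other glutamatergic nuclei. Slc17a6, the main vesicular glutamate transporter of thalamus and habenula, was at 143 and 137 CPM in Ptprq nuclei. Nwd2, Pou4f1, Irx2, Kctd8 and Htr2c were above other glutamatergic nuclei, and the habenula-like label rests on these genes. Irx2 and Kctd8 are on neither the medial nor the lateral list. The remaining medial markers together were not above other glutamatergic nuclei, and those of transmitter type were low. The lateral list was mixed against Pde11a nuclei, and without Htr2c its sum was lower than in other glutamatergic nuclei. Among other cell types, 3 of 4 cholinergic markers (Chat, Slc5a7 and Slc18a3) and 3 of 6 GABAergic markers (Gad1, Gad2 and Six3) had 0 UMIs, 4 of these genes by selection.

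The 15 genes with the highest level in Ptprq nuclei over other glutamatergic nuclei, ranked by the library with the smaller difference, were Ptprq, Popdc3, D130079A08Rik, Cubn, Bves, Cngb3, D130009I18Rik, Sema3d, Irx2, Syt6, Gm40999, Vav2, Elfn1, Ddc and Nwd2. As the nuclei were selected on measured counts, these differences are a description. Most of these genes were shared with the Pde11a nuclei. Cubn, the endocytic receptor cubilin, was at 71.9 CPM in sham Ptprq and 94.0 CPM in sham Pde11a nuclei, and Syt6, a synaptotagmin, was at 193 and 743 CPM. Others were not shared to the same degree. Sema3d, a secreted axon guidance cue, was at 141 and 120 CPM in sham and injury Ptprq nuclei and at 24.6 and 15.2 CPM in Pde11a nuclei. Ddc, which encodes aromatic L-amino acid decarboxylase, was at 42.3 and 53.3 CPM against 9.52 and 8.80 CPM. The level of Ddc in sham oligodendrocyte-like nuclei was 43.7 CPM.

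Ranked against Pde11a nuclei in the same way, Popdc3 and Bves came first, with log2 differences in level of 5.46 and 4.83 in the sham library. They were followed by 9330158H04Rik, Ltbp1, Htr2c (4.22 in sham and 3.69 in injury) and Chrm2. Chrm2, the M2 muscarinic acetylcholine receptor, was at 986 and 824 CPM in sham and injury Ptprq nuclei against 76.5 and 58.9 CPM. Adra1a, an alpha-1 adrenergic receptor, was at 43.1 and 62.8 CPM against 7.14 and 6.43 CPM. In the opposite direction, after Pde11a itself, came Gfra2, Chrna3, Slc43a3, Mcub, Dock5, Gm11418 and Ror2. Gfra2, the neurturin receptor, was at 6.39 and 5.16 CPM in Ptprq and 55.1 and 55.5 CPM in Pde11a nuclei. The Wnt receptor Ror2 was at 47.1 and 43.9 CPM against 284 and 279 CPM.

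Clustering of the Ptprq nuclei alone gave 7 sub-groups, each with nuclei of both libraries. Clusters were formed on these counts, so their leading genes are a description and they were left unnamed. Sub-groups 2 to 5 together held 105 sham and 92 injury nuclei (74.5% and 71.3%), sub-groups 1 and 6 held 19 and 17 (13.5% and 13.2%), and sub-group 0 held 17 and 20 (12.1% and 15.5%). This division into 3 sets was made after the values were seen.

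Sub-groups 2 to 5 carried the genes that distinguish Ptprq from Pde11a nuclei. Htr2c was at 3442 CPM in sham and 2862 CPM in injury nuclei of sub-groups 2 to 5, with a UMI in 100 of 105 and 91 of 92 nuclei. In sub-groups 1 and 6 Htr2c was at 52.2 and 28.9 CPM, with a UMI in 4 of 19 and 3 of 17 nuclei. Popdc3 had 89 and 87 UMIs in sub-groups 2 to 5 and 1 and 0 UMIs in sub-groups 1 and 6. Bves had 71 and 51 UMIs in sub-groups 2 to 5 and 0 in both libraries in sub-groups 1 and 6, where 3 UMIs would correspond to 31.3 and 28.9 CPM. Ddc likewise had 47 and 53 UMIs against 0 and 0.

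The medial habenula transmitter genes lay mostly in the smaller sets. Tac2 had 5 sham and 11 injury UMIs in sub-groups 1 and 6 (52.2 and 106 CPM), and 0 and 1 UMI in sub-groups 2 to 5. Tac1 had 6 and 3 UMIs in sub-groups 1 and 6 and 1 and 1 in sub-groups 2 to 5. Sub-group 0 held a further 7 and 0 UMIs of Tac1 and 3 and 6 UMIs of Tac2, with Htr2c at 792 and 857 CPM. Slc17a7, a vesicular glutamate transporter of cortex and medial habenula, was at 167 and 173 CPM in sub-groups 1 and 6 against 13.0 and 14.95 CPM. Pde11a was at 125 and 115 CPM in sub-groups 1 and 6 against 7.08 and 12.2 CPM in sub-groups 2 to 5. Nwd2 was high in both, at 5271 and 5397 CPM in sub-groups 1 and 6 and 3294 and 3115 CPM in sub-groups 2 to 5. Chrm3, a lateral marker on the list, was also higher in sub-groups 1 and 6 (605 and 481 CPM) than in sub-groups 2 to 5 (173 and 302 CPM). Genes shared with Pde11a nuclei were uneven too. Over both libraries Cubn was at 640 CPM in sub-group 6 against 46.1 CPM in all other Ptprq nuclei. Syt6 was at 887 CPM in sub-group 1 and 1354 CPM in sub-group 6, against 182 and 167 CPM in all other Ptprq nuclei.

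Sub-group 0 stood apart. All of its 17 sham and 20 injury nuclei were called doublets, and its median depth was 17284 (sham) and 13412 UMIs (injury). Its 5 leading genes were Plekhg1, St18, A330015K06Rik, Synpo2 and Gm41414, and the leading genes also included Prkcd and Sox2ot. Plekhg1, on the thalamic relay list, was at 568 and 544 CPM in sub-group 0 against 4.72 and 13.6 CPM in sub-groups 2 to 5, and Prkcd, a protein kinase C isoform of relay neurons, was at 156 and 77.3 CPM against 4.72 and 5.44 CPM. It contributed 24.6% of sham and 27.8% of injury UMIs of the Ptprq nuclei, so for a number of genes the value in sub-groups 2 to 5 is also given below. Sub-groups 2 to 5 held 67.7% of sham and 63.3% of injury UMIs. Their counts are part of those over all Ptprq nuclei, so their values are no separate check.

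**Figure D2:**
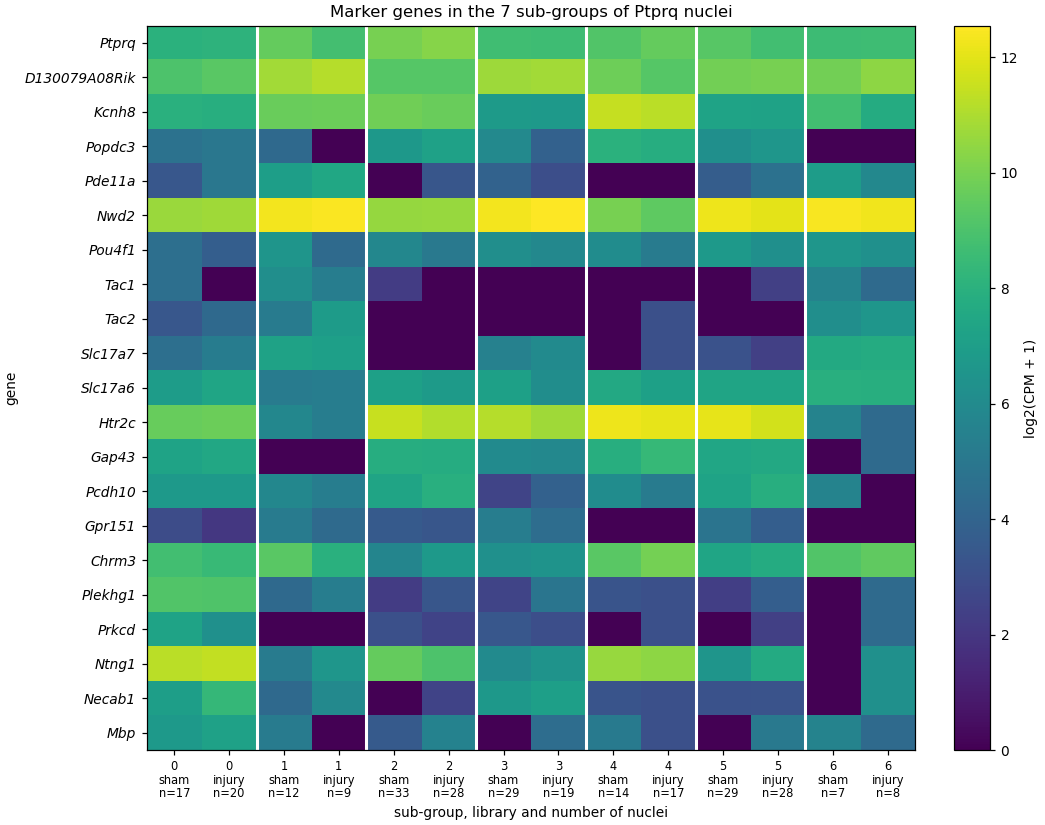
Level of 21 genes (rows) in the 7 sub-groups of Ptprq nuclei by library (columns, with the number of nuclei), as log2(CPM + 1) from dark (0) to bright. Htr2c is bright in sub-groups 2 to 5 and dim in 1 and 6, where Tac2 and Slc17a7 are seen, and Plekhg1 and Ntng1 are bright in sub-group 0.

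Within sub-groups 2 to 5 the nuclei differed further. Sub-group 4 (14 sham and 17 injury nuclei) had the highest levels of Kcnh8, at 2820 and 2452 CPM, of Popdc3, at 258 and 225 CPM, and of Htr2c, at 4728 and 4302 CPM. Its leading genes included Lmo7, the engulfment adaptor Gulp1 (1196 CPM against 93.5 CPM in the other Ptprq nuclei) and the metalloprotease Tll1. Sub-group 2 (33 and 28 nuclei) had the highest Ptprq, at 1020 and 1242 CPM, and was led by the transcription factor Ebf3, Nkain3 and Chst9. Sub-group 3 (29 and 19 nuclei) was led by Col5a3, Ltbp1, Syt10 and the bicarbonate transporter Slc4a4, with low Kcnh8 (112 and 106 CPM) and high Nwd2 (5117 and 5984 CPM). Sub-group 5 (29 and 28 nuclei) was led by Gm20713 and the synaptic vesicle protein Sv2c and carried Chrm2 at 2201 CPM against 575 CPM elsewhere. Kcnh8 thus varied over a wide range among nuclei that all met the same conditions.

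At the thresholds of the selection, 47 sham and 44 injury nuclei had exactly 2 Ptprq UMIs, and 69 and 78 further nuclei met all other conditions with exactly 1. Their Nwd2 was 3816 and 4242 CPM just inside and 3506 and 3620 CPM just outside, and their Htr2c was 2216 and 1746 CPM inside and 2117 and 1617 CPM outside. Nuclei that met all conditions but had no D130079A08Rik (26 and 21) had Nwd2 at 528 and 212 CPM, against 1626 and 1425 CPM in the nuclei with exactly 1 UMI. Pde11a removed 114 and 125 of 265 and 268 nuclei that had enough Ptprq and D130079A08Rik. Just inside this threshold, 7 and 12 nuclei had 1 more UMI of Ptprq than of Pde11a. Their Htr2c was 30.7 and 357 CPM and their Popdc3 0 and 10.8 CPM. Just outside, 10 and 5 nuclei had equal counts, with Htr2c at 1296 and 481 CPM and Popdc3 at 22.7 and 0 CPM.

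Ptprq nuclei made up 0.861% (exact binomial interval 0.725 to 1.01) of sham and 0.592% (0.495 to 0.703) of injury nuclei. The injury share was 1.45 times lower, a log2 ratio of -0.54 (-0.90 to -0.18). Pde11a nuclei were also lower in share, with a log2 ratio of -0.33 (-0.54 to -0.12), as were other glutamatergic nuclei (-0.34), whereas Chat nuclei were higher (0.30, 0.11 to 0.50) and oligodendrocyte-like nuclei were higher (0.89). Among Ptprq, Pde11a and Chat nuclei together, Ptprq nuclei were 16.4% (14.0 to 19.0) of 861 in the sham and 11.8% (9.92 to 13.8) of 1096 in the injury library. With nuclei thinned to 3000 UMIs before the selection, the log2 ratio of the shares was -0.46 (-0.94 to 0.02), so that the interval reached 0. Each share depends on what was dissected and sorted in 1 pool, and this cannot be told apart from a change in the tissue.

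To ask how gene levels in the Ptprq nuclei differed after CAI, UMIs were summed over the nuclei of each library. Of 6741 genes with at least 50 UMIs over both libraries, 24 (0.356%) were at least 2-fold higher and 23 (0.341%) at least 2-fold lower in the injury library with a counting interval that excluded no difference. The median log2 ratio of these 6741 genes was 0.01. When size factors from the median of ratios replaced the UMI total, which moved all log2 ratios by 0.05, 18 genes were higher and 32 lower. Intervals at this level miss by construction for up to 5% of genes, a share that counts misses on both sides. Among 10199 genes with at least 20 UMIs they lay above 0 for 5.18% (528 genes) and below 0 for 4.56% (465 genes). The share above 0 alone was thus larger than the 5% for both sides. The cause of this excess was not tested. The 4 markers showed log2 ratios near 0, with Ptprq at -0.01 (-0.17 to 0.14), Kcnh8 at -0.07 (-0.22 to 0.08), D130079A08Rik at 0.07 and Popdc3 at 0.09 (-0.33 to 0.51). The selection used Ptprq and D130079A08Rik in both libraries. Their ratios are therefore a description and do not show that their levels were unchanged. Bves was at -0.35 (-0.88 to 0.16).

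**Figure D3:**
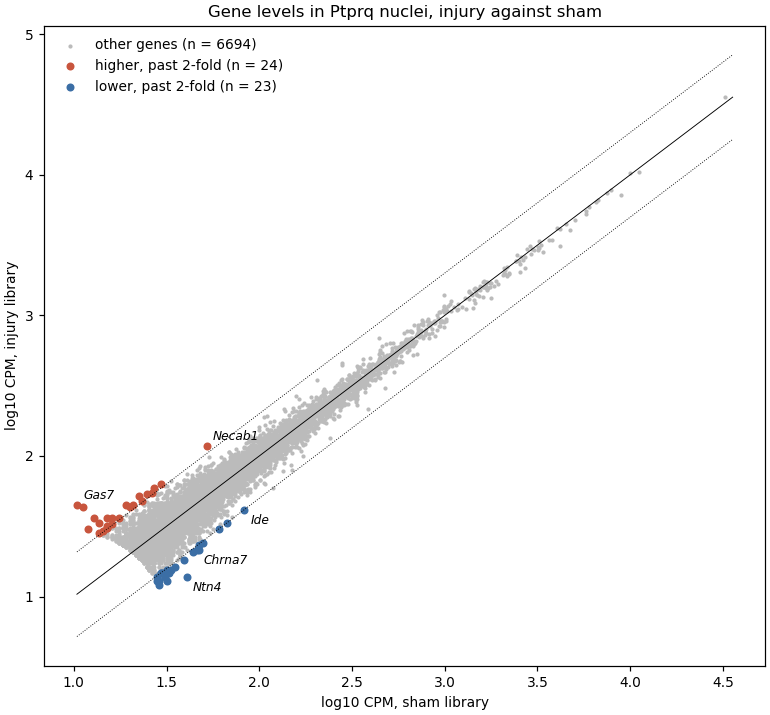
Level of each of 6741 genes in the sham (horizontal) and injury (vertical) Ptprq nuclei, in log10 CPM. The solid line marks equal levels and the dotted lines a 2-fold difference. The 24 higher genes (red) and 23 lower genes (blue) lie at the low end of the range, where counts are small.

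Gas7, a cytoskeletal adaptor linked to neurite outgrowth, had the largest ratio among the 30 genes named for the bound of their interval nearest to 0. It had 13 UMIs in the sham library (10.4 CPM, in 9 nuclei) and 52 in the injury library (44.7 CPM, in 29 nuclei), a log2 ratio of 2.11 (1.21 to 3.11). The difference was of the same size in sub-groups 2 to 5, where 11 and 44 UMIs gave 2.20 (1.23 to 3.31), and in Ptprq nuclei not called as doublets (2.10). Gas7 was at 339 and 417 CPM in oligodendrocyte-like nuclei. Its log2 ratio was 0.51 (0.39 to 0.63) in other glutamatergic nuclei and -0.70 (-1.54 to 0.11) in Pde11a nuclei.

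For 4 other higher genes most UMIs lay in sub-group 0 and the interval in sub-groups 2 to 5 included 0. Sox2ot, a long non-coding RNA over the Sox2 locus, had 14 and 50 UMIs, of which 11 and 45 lay in sub-group 0. Necab1, a neuronal calcium-binding protein, had 65 and 136 UMIs, of which 40 and 106 lay in sub-group 0. In sub-groups 2 to 5 Necab1 had 24 and 23 UMIs and a ratio on the log2 scale of 0.14 (-0.75 to 1.03), against 1.17 over all Ptprq nuclei. For the transcription factor Zeb2, 10 of 16 sham and 33 of 42 injury UMIs lay there, and for Tmem132d 20 of 28 and 48 of 60. In sub-groups 2 to 5 the log2 ratio was 0.94 (-1.42 to 3.63) for Sox2ot, from 3 and 5 UMIs, 1.20 (-1.02 to 3.83) for Zeb2, from 3 and 6 UMIs, and 1.08 (-0.48 to 2.80) for Tmem132d, from 6 and 11 UMIs. Over all Ptprq nuclei these ratios were 1.94, 1.499 and 1.21. The sizes for Zeb2 and Tmem132d were thus close to those over all Ptprq nuclei, with wide intervals from few UMIs. The log2 ratio of Zeb2 was 2.40 (2.29 to 2.51) in other glutamatergic nuclei and 1.57 (1.05 to 2.11) in Pde11a nuclei. Without called doublets the log2 ratios were 0.62 for Sox2ot, 0.48 for Necab1, 0.43 for Zeb2 and 0.38 for Tmem132d. Sox2ot and Zeb2 were at 1808 and 2264 CPM in sham oligodendrocyte-like nuclei, and Necab1 at 313 CPM in sham glutamatergic nuclei.

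The other 10 genes on the higher side also had an interval above 0 in sub-groups 2 to 5. Zfp804b, a zinc finger protein, had 48 and 101 UMIs there and a ratio on the log2 scale of 1.28 (0.77 to 1.81), against 0.77 over all Ptprq nuclei. Most of its UMIs, 193 of 255 in sham and 286 of 404 in injury, lay in sub-group 0, where the ratio was 0.50 (0.23 to 0.77). Shisa9, an auxiliary subunit of AMPA receptors, was at 280 and 445 CPM over all Ptprq nuclei, with a log2 ratio of 0.67 (0.47 to 0.87) and 0.83 in sub-groups 2 to 5. Gulp1, among the leading genes of sub-group 4, was at 158 and 265 CPM (0.74, 0.48 to 1.01). Asic2, an acid-sensing ion channel, was at 443 and 686 CPM (0.63, 0.47 to 0.79), with up to 112 UMIs in a single injury nucleus. Cmss1 was at 280 and 458 CPM (0.71), overlaps Filip1l on the opposite strand, and had a ratio of like size in Pde11a (0.67), Chat (0.78) and other glutamatergic nuclei (0.88). The long non-coding RNA Pvt1 (1.13), the lipid flippase Atp8b2 (1.22), the RNA processing factor Srrt (1.09), Fryl (0.80) and the homeobox zinc finger factor Tshz2 (0.83, or 0.46 in sub-groups 2 to 5) completed the list. For Tshz2, 55 of 133 sham and 124 of 220 injury UMIs lay in sub-group 0. Tshz2 was also higher in Pde11a (0.55), Chat (0.62), other glutamatergic (0.34) and oligodendrocyte-like nuclei (0.72), each with an interval above 0.

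Ntn4, a secreted netrin, had the most negative log2 ratio of the 15 genes named on the lower side, which had at least 50 UMIs. Its sham level was 40.7 CPM (51 UMIs over 33 nuclei) and its injury level 13.8 CPM (16 UMIs over 16 nuclei), a log2 ratio of -1.57 (-2.48 to -0.73). Of these, 48 and 13 UMIs lay in sub-groups 2 to 5, with -1.68 (-2.69 to -0.77). In Pde11a nuclei the log2 ratio of Ntn4 was -0.12 (-0.69 to 0.45) and in other glutamatergic nuclei -0.15 (-0.26 to -0.04).

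Ptchd4, a patched-domain protein, was lower from larger counts. It was at 384 CPM in sham and 216 CPM in injury Ptprq nuclei, from 481 and 251 UMIs in 85 and 67 nuclei, a log2 ratio of -0.83 (-1.06 to -0.61). A single sham nucleus held 44 of its UMIs, and without the top nucleus of each library the log2 ratio was -0.76 (-0.998 to -0.53). It was -0.87 in sub-groups 2 to 5, -0.09 (-0.36 to 0.17) in Pde11a nuclei and -0.06 (-0.10 to -0.02) in other glutamatergic nuclei.

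The alpha-7 nicotinic acetylcholine receptor Chrna7 had 58 sham UMIs, spread over 34 nuclei, and 25 injury UMIs, over 20 nuclei, a log2 ratio of -1.11 (-1.85 to -0.41). With D130079A08Rik not required for membership its log2 ratio was -0.38. Of the 13 nicotinic receptor genes, 3 had at least 20 UMIs, and the others were Chrnb2 at -0.83 (-2.03 to 0.29) and Chrnb3 at 0.36 (-0.44 to 1.17). The median of these 3 genes was -0.80 (approximate counting interval -1.40 to -0.19). Chrna7 was the 1 gene of 3 whose interval excluded 0, beside 4.56% below 0 among all genes with at least 20 UMIs. It was also the 1 gene called lower, beside 0.341% of all genes with at least 50 UMIs. The difference in share was not tested. The summed level of the 13 genes was 102 CPM in sham and 72.2 CPM in injury Ptprq nuclei (-0.50, -0.92 to -0.09). Of the 128 and 84 UMIs in this sum, 58 and 25 were of Chrna7, which was named for its fall. The median and the sum both include Chrna7, so neither is separate support for a fall of the other nicotinic genes. This sum was at -0.67 (-1.20 to -0.16) in sub-groups 2 to 5 and 0.17 (-0.70 to 1.06) in sub-group 0. The median was not recomputed under the other settings.

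The other 12 genes on the lower side had intervals below 0 in sub-groups 2 to 5 as well. Rgs20, a regulator of G protein signalling, was at 240 and 135 CPM (-0.83, -1.12 to -0.55). Cftr, a chloride channel, was at 148 and 86.0 CPM (-0.78, -1.15 to -0.42), with other glutamatergic nuclei at 8.90 CPM in the sham library. In Pde11a nuclei Cftr was higher, at 183 and 147 CPM, and lower after injury too (-0.32, -0.51 to -0.13). Its log2 ratio was -0.32 (-0.61 to -0.03) in Chat nuclei. Slc25a36, a mitochondrial nucleotide carrier, was at 149 and 79.1 CPM (-0.92). Its log2 ratio was -0.35 in Pde11a, -0.46 in Chat, -0.42 (-0.47 to -0.37) in other glutamatergic and -0.32 in oligodendrocyte-like nuclei, each with an interval below 0. The protocadherin Pcdh7 was at 476 and 304 CPM (-0.65), of which 224 and 98 of 596 and 353 UMIs lay in sub-group 0, and its log2 ratio was -0.36 (-0.59 to -0.12) in sub-groups 2 to 5. The anoctamin Ano3 (-0.99), the insulin-degrading enzyme Ide (-1.01), Zcchc18 (-0.78), Rnf24 (-1.001), the Hedgehog pathway suppressor Sufu (-1.13), the CaMKII inhibitor Camk2n1 (-1.31), Mllt6 (-1.01) and the polycomb protein Pcgf6 (-0.94) made up the rest. Zcchc18 was lower in each of the other sets as well, at -0.47 in Pde11a, -0.60 in Chat, -0.55 in other glutamatergic and -0.52 in oligodendrocyte-like nuclei, each with an interval below 0. Rnf24 had 84 and 39 UMIs, of which 62 and 19 lay in sub-groups 2 to 5 (-1.502, -2.33 to -0.74).

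**Figure D4:**
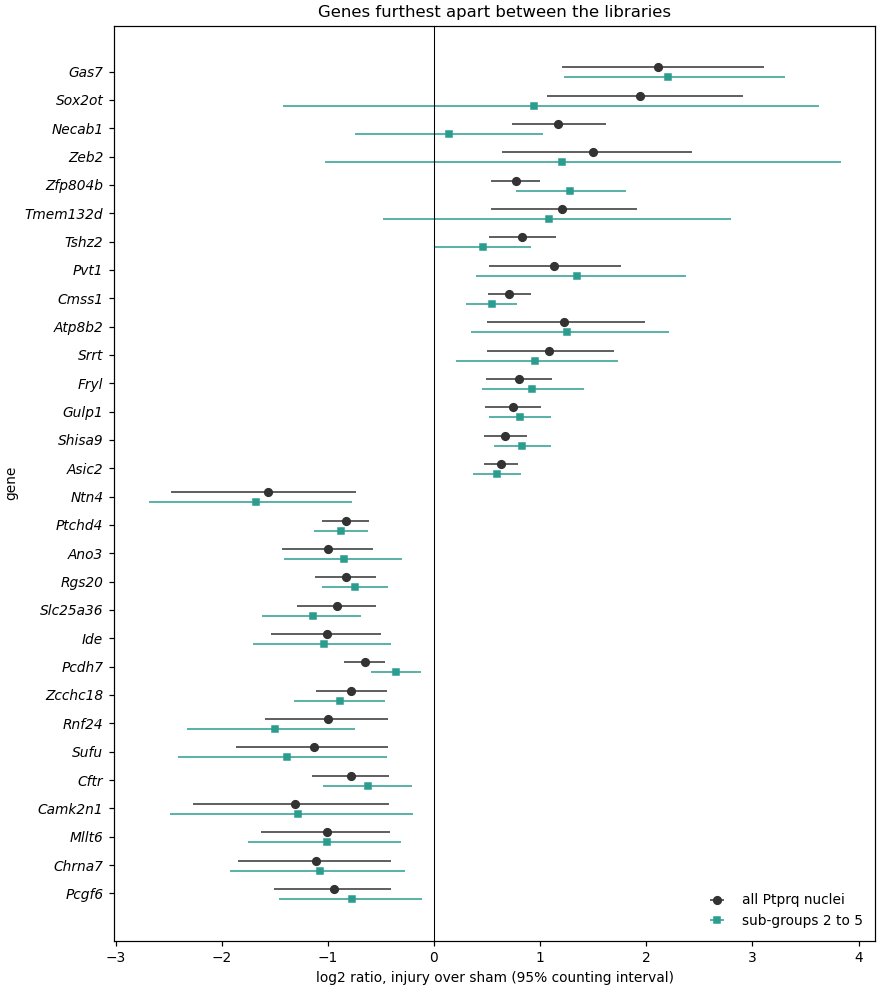
Log2 ratio of injury over sham (horizontal axis) for the 15 genes furthest above and the 15 furthest below 0 by the near bound of their interval, in all Ptprq nuclei (black circles) and in sub-groups 2 to 5 (green squares). Bars are 95% counting intervals. For Sox2ot, Necab1, Zeb2 and Tmem132d the green interval spans 0, and for Gas7, Ntn4 and Ptchd4 both intervals lie on one side of 0.

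Of 28 transcription factors of the habenula and thalamus, 21 had at least 20 UMIs, with a median log2 ratio of -0.01 against 0.01 over all genes. Of these 21 intervals 4 lay above and 2 below 0, beside 5.18% and 4.56% of all genes with at least 20 UMIs, and the difference in share was not tested. Pou4f1 had 81 sham UMIs, spread over 58 nuclei, and 47 injury UMIs, over 40 nuclei (64.7 and 40.4 CPM), a log2 ratio of -0.68 (-1.23 to -0.14). In sub-groups 2 to 5 this ratio was -0.57 (-1.19 to 0.03). Zic5 had 24 and 8 UMIs (-1.48, -2.84 to -0.28) and Ebf3 had 27 and 48 (0.94, 0.23 to 1.67), whereas Ebf1, an early B cell factor family member, was at 749 and 711 CPM (-0.08, -0.21 to 0.06).

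Lateral habenula markers differed in direction. Htr2c was lower in the injury library, from 3167 sham and 2385 injury UMIs, with a log2 ratio of -0.30 (-0.38 to -0.23), or -0.27 (-0.35 to -0.19) in sub-groups 2 to 5. The M3 muscarinic receptor Chrm3 was higher, at 269 and 332 CPM, with a log2 ratio of 0.30 (0.09 to 0.52) over all Ptprq nuclei and 0.80 (0.49 to 1.11) in sub-groups 2 to 5. In sub-group 0 Chrm3 was at 428 and 353 CPM and in sub-groups 1 and 6 at 605 and 481 CPM. Within sub-groups 2 to 5 it was highest in sub-group 4 (653 and 987 CPM), which held 14 of 105 sham and 17 of 92 injury nuclei. It was also higher in the injury library in sub-groups 2 (51.0 and 107 CPM), 3 (78.1 and 84.9 CPM) and 5 (163 and 211 CPM). Pcdh10 was at 0.32 (-0.03 to 0.67) over all Ptprq nuclei and 0.51 (0.11 to 0.93) in sub-groups 2 to 5, Gap43 at 0.23 (-0.06 to 0.52) and Gpr151 at -1.03 (-2.27 to 0.11) from 22 and 10 UMIs. Chrm2, not on this list, was at -0.26 (-0.38 to -0.14) over all Ptprq nuclei and -0.11 (-0.24 to 0.03) in sub-groups 2 to 5.

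Among 38 voltage-gated potassium channel genes, 22 had at least 20 UMIs, with a median log2 ratio of -0.09. The intervals of Kcnh7 (-0.18, -0.31 to -0.06) and Kcnq5 (-0.26, -0.44 to -0.08) lay below 0 (2 of 22, beside 4.56% of all genes with at least 20 UMIs), and none lay above. Among 18 ionotropic glutamate receptor genes, 17 had enough UMIs and a median of 0.00, with 1 interval above and 3 below 0, beside 5.18% and 4.56% of all genes. For example, the AMPA receptor subunit Gria3 was at 566 and 465 CPM (-0.28, -0.45 to -0.12), while Gria1 was at 0.11 (0.01 to 0.21). The difference in share was not tested for the channel and receptor lists. Of the 4 GABA-B receptor genes with enough UMIs, Kctd8 alone had an interval that excluded 0, at -0.21 (-0.30 to -0.13). This stands beside 4.56% of all genes with at least 20 UMIs below 0, and the difference in share was not tested. The other 16 receptor-type phosphatase genes with enough UMIs ranged from -0.17 (Ptprs) to 0.29 (Ptprt), each with an interval that included 0.

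The medians of the synaptic lists were close to that of all genes. Of 27 glutamatergic synapse genes, 26 had enough UMIs, with a median log2 ratio of 0.05. Of these 26 intervals 5 lay above and 3 below 0, beside 5.18% and 4.56% of all genes with at least 20 UMIs. Many of these genes had more UMIs and so narrower intervals than most genes, and the difference in share was not tested. The 28 presynaptic genes had a median of -0.03, with 1 interval above and 3 below 0. Of 19 immediate early genes, which mark recent activity, 6 had enough UMIs, with a median of -0.14 and no interval that excluded 0. The sum of the 19 genes had a log2 ratio of -0.23 (-0.50 to 0.04) over all Ptprq nuclei. It was -0.39 (-0.71 to -0.07) in sub-groups 2 to 5 and 0.30 (-0.29 to 0.89) in sub-group 0. Fos had 0 UMIs in the sham and 1 UMI in the injury library, Egr1 had 11 and 1, and Nr4a2, which is also a developmental transcription factor, had 97 and 83 (-0.12). Of 21 axon injury and stress genes, 9 had enough UMIs, with a median of -0.06. Of these 9 intervals 1 lay below 0, beside 4.56% of all genes with at least 20 UMIs, and the difference in share was not tested. The interval that lay below 0 was that of Sox11, a transcription factor linked to axon growth, which had 40 sham and 9 injury UMIs (-2.05, -3.27 to -0.98) and so missed the minimum of 50 UMIs for a call.

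Ribosomal protein genes were lower on balance. Of 79 such genes, 77 had at least 20 UMIs, and 56 ratios were below and 21 above 0, with a median log2 ratio of -0.26 (approximate counting interval -0.39 to -0.12). The interval lay below 0 for 15 and above 0 for 0 genes, beside 4.56% and 5.18% of all genes with at least 20 UMIs, and the difference in share was not tested. Among 27 with at least 50 UMIs, 3 passed 2-fold lower, namely Rpl9 (39 and 16 UMIs), Rpl30 (55 and 24) and Rpl10a (36 and 15), against 0.341% of all genes. The summed level was 1643 CPM in sham and 1291 CPM in injury Ptprq nuclei, a log2 ratio of -0.35 (-0.44 to -0.25). The sums of the other sets were lower too, at -0.33 in Pde11a, -0.34 in Chat, -0.45 in other glutamatergic and -0.42 in oligodendrocyte-like nuclei. Translation factors had a median of -0.01 over 27 genes.

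Genes of thalamic relay neurons had a median log2 ratio of 0.17 over 8 genes and summed to 2110 CPM in sham and 2301 CPM in injury Ptprq nuclei. In sub-group 0 their sum was 4648 and 4891 CPM, in sub-groups 2 to 5 it was 1349 and 1339 CPM, and in sub-groups 1 and 6 it was 678 and 1058 CPM (0.64, 0.19 to 1.11). Necab1, described above, was the gene on this list that passed 2-fold higher, beside 0.356% of all genes with at least 50 UMIs. Of the 8 intervals 4 lay above and 1 below 0, beside 5.18% and 4.56% of all genes with at least 20 UMIs. The difference in share was not tested for this list. Among 19 circadian clock genes, 14 had enough UMIs, with a median of 0.10, 4 intervals above and 1 below 0, beside 5.18% and 4.56% of all genes with at least 20 UMIs, and the difference in share was not tested. The nuclear receptor Rora was at 988 and 1168 CPM (0.24, 0.13 to 0.35), and the clock factor Npas2 had 30 and 52 UMIs (0.90, 0.22 to 1.60), with Npas2 among the leading genes of sub-group 0. The clock repressor Bhlhe41 had 32 and 15 UMIs (-0.99, -1.98 to -0.06). Of 27 neuropeptide genes, 9 had 0 UMIs and 5 had enough, with a median of -0.03, and the 6 pacemaker channel genes with enough UMIs had a median of 0.05.

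Summed counts of the oligodendrocyte and astrocyte lists were higher in the injury Ptprq nuclei. The 7 oligodendrocyte genes summed to 113 CPM in sham and 154 CPM in injury, a log2 ratio of 0.44 (0.11 to 0.77), with Mbp at 45 and 70 UMIs and Mobp at 10 and 23 UMIs. The direction of the list's median depended on the processing, at 0.74 as reported, -0.38 with thinned nuclei and -0.061 by the mean of CPM. The 7 astrocyte genes summed to 98.3 and 150 CPM (0.61, 0.27 to 0.95), and the 7 microglia genes to 79.1 and 78.3 CPM. The glutamate transporter Slc1a2 was the 1 astrocyte gene with at least 20 UMIs, with 116 and 149, and the astrocyte sum was higher in other glutamatergic nuclei (317 and 323 CPM) than in Ptprq nuclei. In sub-groups 2 to 5 the oligodendrocyte sum was 44.8 and 62.5 CPM (0.48, -0.17 to 1.14), and in other glutamatergic nuclei it was 59.7 and 110 CPM. The astrocyte sum in sub-groups 2 to 5 was 54.3 and 87.0 CPM (0.68, 0.11 to 1.26), an interval above 0, and in sub-group 0 it was 237 and 316 CPM (0.41, -0.03 to 0.87). The 5 genes of oligodendrocyte precursors had 3 sham and 26 injury UMIs in sub-group 0 (3.05, 1.34 to 5.41) and 32 and 18 UMIs in sub-groups 2 to 5, with Olig2 at 0 UMIs. The part of RNA from glial cells in the differences above, such as those of Gas7, Sox2ot and Zeb2, was not tested.

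**Figure D5:**
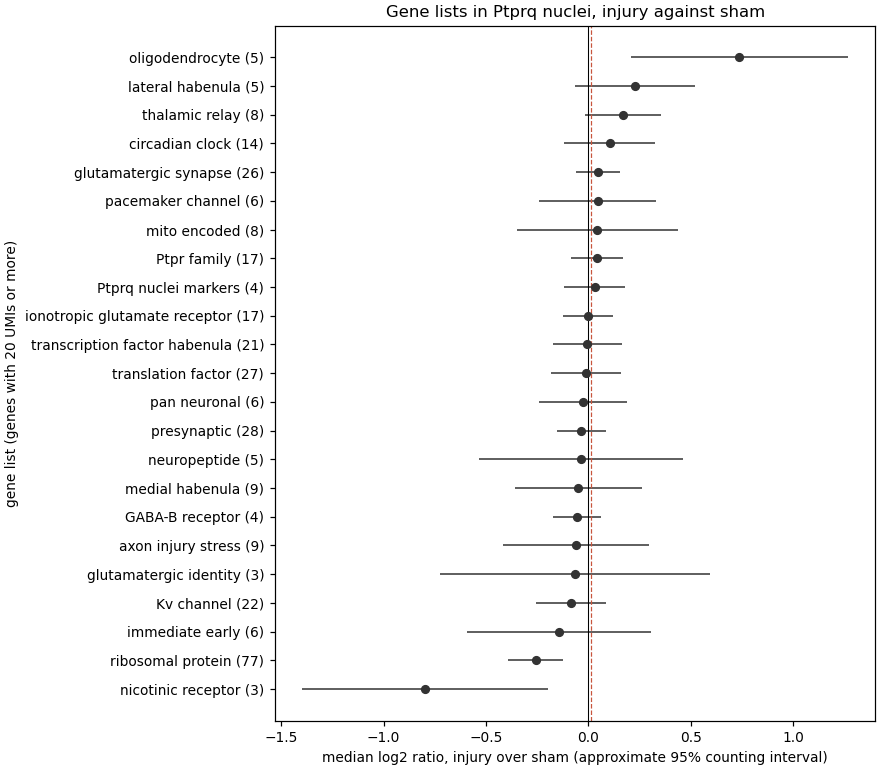
Median log2 ratio of injury over sham in Ptprq nuclei for each gene list with at least 3 genes of 20 UMIs or more (number in brackets), with approximate 95% counting intervals. The solid line marks 0 and the dashed line the median over all genes. The Ptprq nuclei marker list holds Ptprq and D130079A08Rik, which the selection used, and the nicotinic list holds Chrna7, named for its fall. The medians of the ribosomal protein list (-0.26) and of the 3 nicotinic receptor genes (-0.80) lie below 0, and the oligodendrocyte list lies above it (0.74) but turns below 0 with thinned nuclei (-0.38) and by the mean of CPM (-0.061).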

How the data were processed

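Nuclei were profiled by 10x Genomics 3′ sequencing in 1 sham and 1 injury library, each a pool of 4 mice. The authors deposited 1 matrix of raw UMI counts per gene and nucleus for each library. Per the labels, reads were processed with Cell Ranger 6.0.2 on GRCm38 (mm10), with bcl2fastq and Seurat 4.0 also named. The annotation release, intron counting and strand use are not given in the sources used here. Of 32285 genes in the tables, 50 had no symbol, and 1 list gene, Ptprv, was not found. Positions are GRCm38.

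Nuclei with 200 to 7500 genes and at most 2% mitochondrial UMIs were kept, which removed 9 sham and 30 injury barcodes by mitochondrial UMIs and 8 and 21 by genes. UMIs were summed over the nuclei of a set and divided by the set's UMI total (CPM, per 1000000 UMIs). CPM carries an exact Poisson interval, a share an exact Clopper-Pearson interval, and a ratio of injury over sham an exact conditional interval. The ratios, their intervals and the calls were tested on simulated data with known changes. These data were independent Poisson counts, which the intervals also assume. The check therefore left out the clumping of UMIs within single nuclei. With 1 library per group no test was made. A gene was called at a ratio of at least 2 with an interval excluding no difference, among genes with at least 50 UMIs over both libraries. List medians used genes with at least 20 UMIs and a prior of 0.5 UMI, and their interval is a normal approximation. A gene at 0 UMIs was given a floor of 3 counts. Nuclei were clustered by Leiden at resolution 0.5 on 2000 variable genes and 20 components. Python 3.11.15, numpy 2.4.6, scipy 1.17.1, scanpy 1.11.5 (with Scrublet), R 4.3.3, edgeR 4.0.16 (TMM factors) and DESeq2 1.42.0 (median-of-ratios factors) were used.

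Genes named are the selection genes and markers, the 15 highest and 15 lowest ratios ranked by the near bound of the interval, the 15 leading genes over other glutamatergic nuclei, and members of each list. The genes ranked against Pde11a nuclei, Bves with its neighbours and Sox11 were chosen after their values were seen. The nuclei, markers and lists were chosen with earlier results of these data known.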

Additional observations from a re-analysis of the deposited data

How the results depend on the processing

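No paired analysis was possible because sham and injury were 1 pooled library each, and no replicate could be left out. The count of genes at least 2-fold higher was 24 and lower 23. With D130079A08Rik not required 49 were higher. With nuclei thinned to 3000 UMIs 4 were higher and 7 lower. By the mean of CPM over nuclei 42 were lower, and with sub-groups weighted at their sham shares 35 were lower. With no minimum of UMIs 239 were higher and 161 lower, and with at least 200 UMIs 1 was higher and 0 lower. The sham share of Ptprq nuclei was 1.28% with at least 1 Ptprq UMI, 0.574% with at least 3, 1.02% with D130079A08Rik not required, 0.564% thinned and 0.641% without sub-groups 0, 1 and 6. The injury share was 0.951%, 0.390%, 0.411% (thinned) and 0.422% (without sub-groups 0, 1 and 6) where it moved. By the mean of CPM over nuclei, Ptprq was at 689 and 692 CPM and D130079A08Rik at 1049 and 1084 CPM in sham and injury. The median log2 ratio of the oligodendrocyte genes was 2.20 with at least 3 Ptprq UMIs, -0.38 thinned and -0.061 by the mean of CPM, against 0.74. The thalamic relay median was -0.053 with at least 3 Ptprq UMIs, the pacemaker median 0.35 thinned, and the GABA-B median -0.20 without sub-groups 0, 1 and 6. The cause of these shifts was not tested. Leaving out sub-groups 0, 1 and 6, or the top nucleus of each gene, was chosen after seeing the data.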
